A study of Mus musculus with 12 samples.

Results

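The 10 genes described here are 5 genes that glucocorticoids induce in many tissues (Tsc22d3, Fkbp5, Zbtb16, Sgk1 and Klf9), the glucocorticoid receptor Nr3c1 and the mineralocorticoid receptor Nr3c2, the glucocorticoid-inactivating enzyme Hsd11b2, and the metallothioneins Mt1 and Mt2. They were chosen by symbol, as genes tied to the action of corticosterone, and all 10 were among the 57490 genes of the count table. All 10 were also among the 17431 genes that passed the filter on low counts and were tested.

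RNA of 12 mouse kidneys was sequenced after selection for polyA tails, 1 mouse per library and 4 mice per group, to ask what diabetic nephropathy changes in the kidney and what a herbal decoction changes in diabetic animals. All animals were males of 13 weeks on the BKS background. The Ctrl group were db/m mice, which carry the Leprdb mutation of the leptin receptor on 1 chromosome (the labels also call them wild-type) and received purified water. The Model group were BKS.Cg-Dock7m +/+ Leprdb/JNju mice, homozygous for the mutation (db/db), given the same water. The YHY group were db/db mice given a water extract of Yiqi Huoxue Yangyin Decoction at 6.24 g/mL. Both fluids were given by gavage each day for 4 weeks, 50 µL for every 10 g a mouse weighed. The db/db mice lack leptin receptor signalling in every tissue and were selected on high random blood glucose, so Model and Ctrl differ in obesity, feeding and hormones as well as in the kidney. The labels give whole kidney tissue while the series' design gives renal cortex, and the hour of collection is not given.

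Markers of kidney cell types were present in every library. Summed over 6 proximal tubule markers, TMM-scaled CPM (counts per 1000000 counts of the scaled library) lay between 1309 and 5554 over the 12 mice, with the phosphate transporter Slc34a1 the most abundant on average. Summed levels over the 12 mice were 745 to 2364 CPM for 4 thick ascending limb markers (Slc12a1 the most abundant), 316 to 811 CPM for 4 distal convoluted tubule markers (Slc12a3) and 210.2 to 1369.9 CPM for 6 principal cell markers (Aqp2). They were 110.3 to 242 CPM for 5 intercalated cell markers (Atp6v1g3), 74.1 to 249.6 CPM for 5 podocyte markers (Podxl) and 178 to 343 CPM for 5 endothelial markers (Plvap). Fibroblast and pericyte markers summed to 111 to 317 CPM (Pdgfra) and macrophage markers to 57.9 to 112 CPM (Csf1r), each over 5 genes. The 5 erythroid markers summed to 271 to 1061 CPM (Hba-a1). Each gene in brackets was the most abundant on average over the 12 mice. In every Ctrl mouse, however, Umod was above Slc12a1, Calb1 above Slc12a3 and Dcn above Pdgfra. Markers of T and NK cells (0.775 to 5.67 CPM over 5 genes, Trac the most abundant) and of adipocytes (0.182 to 2.57 CPM over 5 genes, Cidec) were near 0.

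The libraries held 24415658 to 33276634 counts each. Genes of the mitochondrial genome took 18.6, 22.7, 18.4 and 18.5% of the counts in the Ctrl mice, 41.2, 58.9, 55.3 and 53.4% in the Model mice and 53.8, 64.6, 54.6 and 54.2% in the YHY mice. Each share has a 95% Wilson interval narrower than the rounding used here, which covers counting error alone. Levels are therefore scaled by TMM, a method that sets aside the most extreme genes, and other scalings are named where they change a direction or a call.

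Corticosterone, the main glucocorticoid of the mouse, enters cells and binds the glucocorticoid receptor, which is held ready by chaperones, moves to the nucleus and raises or lowers the transcription of its targets. Several targets damp the response in return, as Fkbp5 does by lowering the receptor's affinity for hormone. In the kidney the mineralocorticoid receptor binds corticosterone as well as aldosterone, and the enzyme made from Hsd11b2 inactivates corticosterone in the aldosterone-sensitive distal nephron, while Sgk1 raises sodium uptake there. Metallothioneins bind zinc and copper and are induced by metals through the factor Mtf1 and by glucocorticoids.

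In the genome coordinates that the count table lists, Tsc22d3 (ENSMUSG00000031431) spans 139440277 to 139501408 of chromosome X, Fkbp5 (ENSMUSG00000024222) spans 28618068 to 28736501 of chromosome 17, Zbtb16 (ENSMUSG00000066687) spans 48565597 to 48747522 of chromosome 9, Sgk1 (ENSMUSG00000019970) spans 21758083 to 21875802 of chromosome 10 and Klf9 (ENSMUSG00000033863) spans 23118590 to 23145498 of chromosome 19. For the receptors, Nr3c1 (ENSMUSG00000024431) spans 39543598 to 39652474 of chromosome 18 and Nr3c2 (ENSMUSG00000031618) spans 77626070 to 77971641 of chromosome 8. The enzyme gene Hsd11b2 (ENSMUSG00000031891) spans 106245387 to 106250620 of chromosome 8. Among the metallothioneins, Mt1 (ENSMUSG00000031765) spans 94905710 to 94906955 of chromosome 8 and Mt2 (ENSMUSG00000031762) spans 94899292 to 94900196 of chromosome 8, so that they are neighbours. Each of the 10 is listed as protein coding, and the processing notes name the build GRCm39.

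Per kilobase of listed gene length, Hsd11b2 and Mt1 were the most abundant members in the Ctrl kidneys, at 88.0 ± 23.7 and 83.8 ± 21.3 CPM per kb (mean ± SD, n = 4), a difference smaller than either spread. The listed length of Mt1, 1246 bases, is the whole span of its gene. A shorter transcript would give Mt1 a higher level per kb, so its order with Hsd11b2 in Ctrl is uncertain. Klf9 followed at 20.4 ± 3.97 CPM per kb, then Sgk1 at 13.6 ± 5.34 and Tsc22d3 at 9.90 ± 1.25. Next came Nr3c1 at 7.05 ± 1.19 and Fkbp5 at 5.17 ± 2.13 CPM per kb. Sgk1 and Tsc22d3 differed by less than the SD of Sgk1 but by more than that of Tsc22d3. Nr3c1 and Fkbp5 differed by less than the SD of Fkbp5 but by more than that of Nr3c1. Nr3c2 at 1.40 ± 0.291, Mt2 at 0.919 ± 0.480 and Zbtb16 at 0.117 ± 0.0882 CPM per kb were the scarcest. In the Model kidneys Mt1 came first at 251 ± 67.0 CPM per kb, ahead of Klf9 at 35.5 ± 4.21 and Hsd11b2 at 30.2 ± 13.6. The latter pair differed by less than the SD of Hsd11b2 but by more than that of Klf9. In the YHY kidneys Mt1 stood at 345 ± 53.0 CPM per kb, Hsd11b2 at 51.2 ± 8.51 and Sgk1 at 36.7 ± 20.0. Hsd11b2 and Sgk1 differed by less than the SD of Sgk1 but by more than that of Hsd11b2. Zbtb16 stood at 0.952 ± 0.221 CPM per kb in Model, within 1 SD of Nr3c2 at 1.15 ± 0.283, and at 1.96 ± 0.370 CPM per kb in YHY, where Nr3c2 was the scarcest at 1.26 ± 0.0859.

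**Figure D1:**
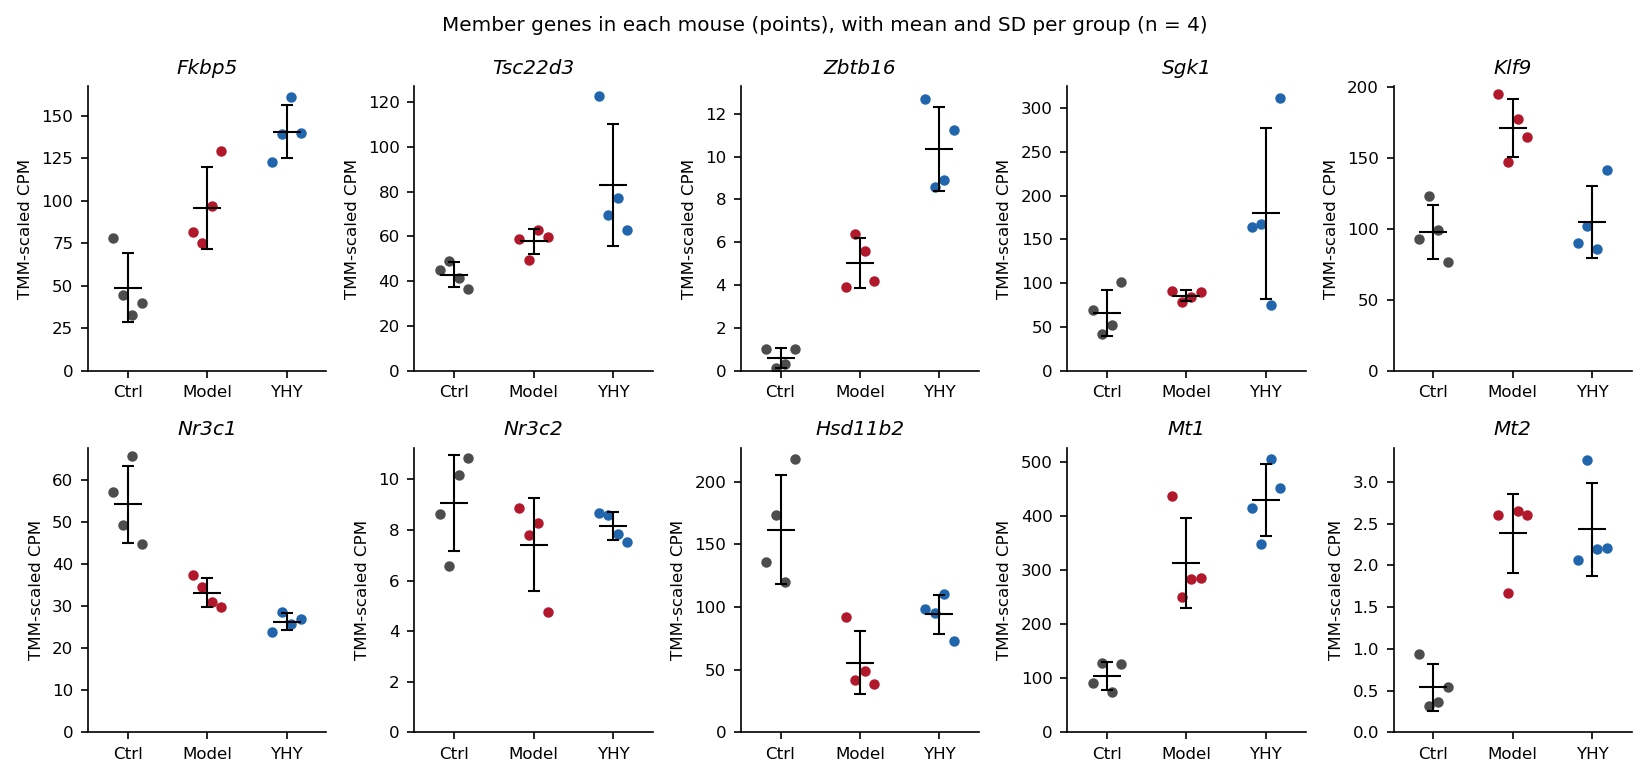
Each panel plots 1 member gene, with TMM-scaled CPM on the vertical axis, 1 point per mouse and the mean with its SD (n = 4) for Ctrl, Model and YHY. Nr3c1 lay at 44.8 CPM or more in the Ctrl mice and at 37.5 CPM or less in the Model mice, and Mt1 lay at 127 CPM or less in Ctrl and 249 CPM or more in Model.

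The comparison of Model with Ctrl asks what differs between the untreated diabetic and the non-diabetic kidney. Of the 5 targets of the glucocorticoid receptor, Zbtb16, Fkbp5 and Klf9 rose in Model, the latter pair not with library size alone, and Tsc22d3 and Sgk1 did not pass the test. The receptor gene itself fell to 0.613 of its Ctrl level and Hsd11b2 to 0.343, while Mt1 and Mt2 were 3.00 and 4.36 times as high. Of the 10 members, 7 had an adjusted P under 0.05 in edgeR's quasi-likelihood test with Benjamini-Hochberg adjustment, where 38.0% of all genes tested did. Of these, 5 were higher, against 19.6% of all genes, and 2 lower, against 18.5%. The 4 Model and 4 Ctrl values did not overlap for 7 members, against 40.2% of all genes. The median log2 fold change was 0.61 over the members and 0.038 over all genes tested.

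Zbtb16, a zinc finger repressor whose gene is induced by glucocorticoids, was counted at 1.01, 0.125, 0.318 and 1.02 CPM in Ctrl mice 1 to 4 and at 3.93, 6.38, 5.62 and 4.19 CPM in Model mice 1 to 4. All 4 Model mice were above all 4 Ctrl mice, of which Ctrl 2 held 4 reads. Zbtb16 rose by 2.98 on the log2 scale (SE 0.44, adjusted P = 0.000105). Fkbp5, the co-chaperone that restrains the receptor, was counted at 78.3, 44.6, 32.7 and 40.1 CPM in Ctrl and 81.4, 75.2, 97.3 and 129 CPM in Model. Ctrl 1 was far above the other Ctrl mice and within the Model range, and 3 of 4 Model mice were above every Ctrl mouse. Fkbp5 rose by 0.97 on the log2 scale (SE 0.24, adjusted P = 0.00476), a call lost with scaling by library size alone, where the value was 0.54 (adjusted P = 0.119).

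Klf9, a Krüppel-like repressor and early receptor target, was counted at 93.0, 123, 99.5 and 77.1 CPM in Ctrl and 195, 147, 178 and 165 CPM in Model. Every Model mouse was above every Ctrl mouse, and Model 1 was the highest. Klf9 rose by 0.80 on the log2 scale (SE 0.19, adjusted P = 0.00316), a call again lost with library size alone, at 0.40 (adjusted P = 0.131). Tsc22d3, which encodes the anti-inflammatory protein GILZ, was counted at 44.9, 49.2, 41.3 and 36.5 CPM in Ctrl and 58.7, 49.6, 62.9 and 59.9 CPM in Model. The groups did not overlap, but Model 2 and Ctrl 2 were almost level. The log2 fold change of Tsc22d3 was 0.43 (SE 0.19, adjusted P = 0.0857), and it passed the threshold with upper-quartile scaling, with mitochondrial genes removed and library size alone, in a fit of the 8 mice compared and without YHY 1, at adjusted P of 0.0433, 0.00774, 0.0187 and 0.0253. With library size alone the log2 fold change of Tsc22d3 was 0.012 (adjusted P = 0.975).

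Sgk1, the kinase that promotes sodium uptake in the distal nephron, was counted at 69.5, 42.2, 52.4 and 102 CPM in Ctrl and 91.6, 78.6, 83.9 and 89.8 CPM in Model. The Model mice were close together, within the wider range of Ctrl. The log2 fold change was 0.37 (SE 0.33, adjusted P = 0.394), and with library size alone its sign turned, at -0.087. Promoter sequences of 300 bases from RefSeq for GRCm38.p6 were matched by symbol for 7 of the 10 members, while Hsd11b2, Zbtb16 and Nr3c1 are named here without one. The window listed for Nr3c2 does not hold the outermost RefSeq start of its gene. The letters AGAACA, the hexamer that 1 receptor subunit binds, were searched on both strands and lay in 19.0% of 32851 promoters of the same length. A full palindrome, AGAACA followed by 3 free bases and TGTTCT, which holds 2 such hexamers, lay in 3 of those promoters, and 1 of them was a promoter of Sgk1. Of 6 promoters listed for Sgk1, this 1 held the palindrome, 2 others held 1 hexamer each and 3 held none. It is shown for the full palindrome, in capitals (chr10:21993640-21993939, plus strand). The window holds 3 hexamers, of which 2 make up the palindrome. A match is a description of letters and not a site shown to be bound.
Sgk1: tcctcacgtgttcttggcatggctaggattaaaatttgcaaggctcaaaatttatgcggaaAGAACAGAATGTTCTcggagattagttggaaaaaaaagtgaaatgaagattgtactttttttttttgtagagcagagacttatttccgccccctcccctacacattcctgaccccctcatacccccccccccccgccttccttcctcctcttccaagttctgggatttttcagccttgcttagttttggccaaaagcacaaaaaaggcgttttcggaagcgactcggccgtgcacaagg
In the promoters of Fkbp5 and Klf9 neither this hexamer nor the palindrome was matched, and 1 of 3 Tsc22d3 promoters held 1 hexamer.

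The gene of the glucocorticoid receptor, Nr3c1, was counted at 57.2, 49.2, 65.5 and 44.8 CPM in Ctrl and 37.5, 34.6, 31.0 and 29.8 CPM in Model. Every Model mouse was below every Ctrl mouse. Nr3c1 fell by 0.71 on the log2 scale (SE 0.14, adjusted P = 0.00125), and it passed the threshold under all 21 alternatives, with adjusted P up to 0.0382. The gene of the mineralocorticoid receptor, Nr3c2, was counted at 8.65, 6.58, 10.2 and 10.8 CPM in Ctrl and 8.85, 7.81, 8.27 and 4.75 CPM in Model. The groups overlapped, with Model 4 the lowest of the 8 mice. Nr3c2 had a log2 fold change of -0.29 (SE 0.22, adjusted P = 0.312). With library size alone it passed the threshold at -0.74 (adjusted P = 0.0317), and with mitochondrial genes removed and library size alone its sign turned, at 0.012.

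Hsd11b2, the enzyme gene, was counted at 136, 174, 120.0 and 218 CPM in Ctrl and 92.5, 41.4, 49.3 and 39.0 CPM in Model. All Model mice were below all Ctrl mice, and Model 1 was well above the other Model mice. Hsd11b2 fell by 1.54 on the log2 scale (SE 0.26, adjusted P = 0.000329). The enzyme is made in principal cells, whose 6 markers summed to 853, 507, 570.1 and 1369.9 CPM in Ctrl and 497, 308, 377 and 378 CPM in Model. Of the 5 principal cell markers tested, 2 fell (4 with library size alone, 1 with upper-quartile scaling, and 1 that fell and 1 that rose with mitochondrial genes removed and library size alone), the water channel Aqp2 was the most abundant in every mouse, and the vasopressin receptor gene Avpr2, a defining marker, had at most 12 reads and was at 0 in Ctrl 2, Model 3, Model 4, YHY 1 and YHY 4. Aqp2 held a mean of 650 of the 825 CPM in Ctrl and 286 of the 390 CPM in Model. With TMM the 2 that fell were Aqp2 and Aqp3, with log2 fold changes of -1.18 and -1.72. The log2 fold change was -0.77 for Fxyd4, -0.23 for Scnn1g and 0.29 for Scnn1b (adjusted P = 0.108, 0.416 and 0.294). Fewer cells of a type and less RNA per cell cannot be told apart in bulk tissue, and the part of the principal cell markers in the lower Hsd11b2 was not tested.

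Mt1, the metallothionein with the most reads, was counted at 90.8, 127, 73.8 and 126 CPM in Ctrl and 436, 249, 283 and 285 CPM in Model. Every Model mouse was above every Ctrl mouse, Model 1 highest. Mt1 rose by 1.59 on the log2 scale (SE 0.22, adjusted P = 6.92e-05). Mt2 was counted at 0.937, 0.312, 0.367 and 0.546 CPM in Ctrl and 2.61, 1.67, 2.65 and 2.61 CPM in Model. These levels rest on 10 to 39 reads per Ctrl mouse and 35 to 81 per Model mouse, and again no Model mouse was as low as any Ctrl mouse. Mt2 rose by 2.12 on the log2 scale (SE 0.39, adjusted P = 0.000625). How reads that match both of these similar genes were counted is not stated, so the split between them is uncertain. Their promoters are shown because the pair rose together and lies side by side. The metal response element core, TGCACNC or TGCGCNC, was searched on both strands and lay in 25.7% of promoters. Capitals mark it, and for a match on the minus strand they read as its reverse complement. Mt2 held 4 matches and Mt1 held 3, and 0.517% of all promoters held 4 or more. The windows are chr8:94172368-94172667 for Mt2 and chr8:94178839-94179138 for Mt1, both on the plus strand, and the RefSeq gene start lies after 250 bases of the Mt2 window and after 44 bases of the Mt1 window. The Mt1 matches lie at bases 228 to 277 of its window, all past that start. Those of Mt2 lie at bases 28 to 261, and only the last is past its start. The windows therefore cover unlike parts of the 2 genes.
Mt2: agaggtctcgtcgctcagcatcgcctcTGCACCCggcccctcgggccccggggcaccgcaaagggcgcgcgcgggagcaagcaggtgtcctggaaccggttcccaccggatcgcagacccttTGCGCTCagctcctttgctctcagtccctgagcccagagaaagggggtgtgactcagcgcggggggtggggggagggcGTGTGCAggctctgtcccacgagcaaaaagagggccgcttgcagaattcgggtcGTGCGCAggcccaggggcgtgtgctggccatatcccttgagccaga
Mt1: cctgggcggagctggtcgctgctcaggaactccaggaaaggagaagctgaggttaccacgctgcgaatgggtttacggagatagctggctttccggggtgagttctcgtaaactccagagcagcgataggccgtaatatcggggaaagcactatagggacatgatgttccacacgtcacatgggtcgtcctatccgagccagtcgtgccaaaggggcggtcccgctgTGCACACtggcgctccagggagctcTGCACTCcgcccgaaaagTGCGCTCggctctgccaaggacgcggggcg
The hexamer AGAACA was matched in neither window, which says only that these letters are not in these bases.

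**Figure D2:**
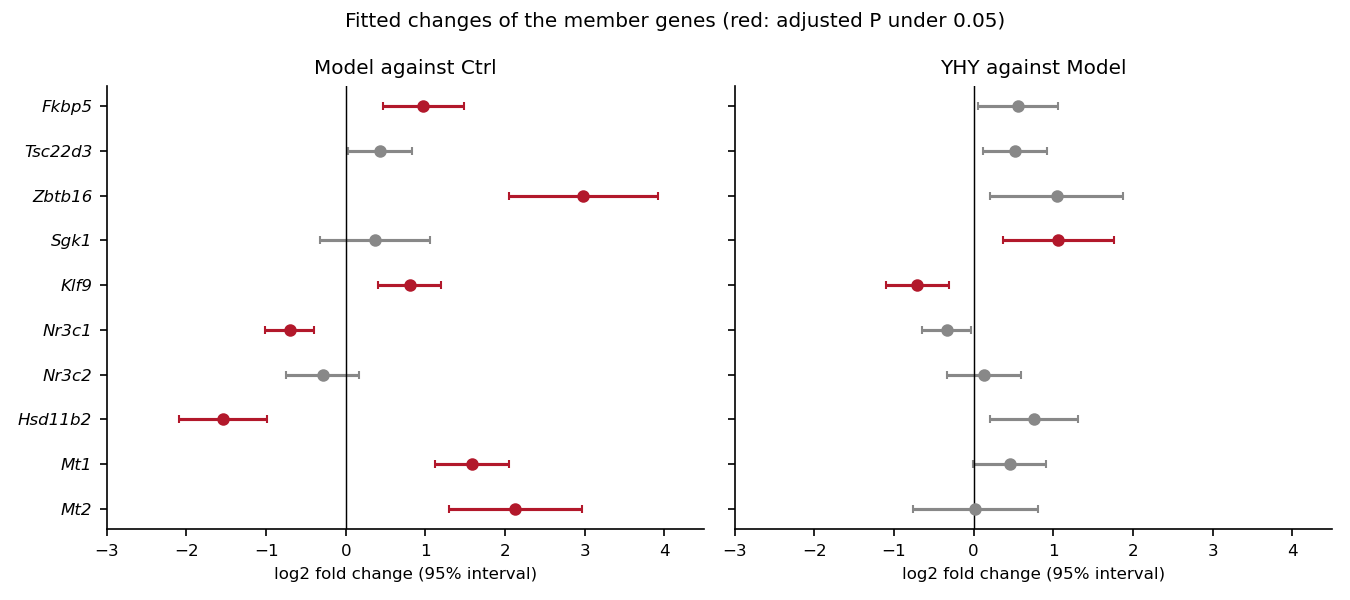
Points are fitted log2 fold changes of the 10 members with their 95% intervals, for Model against Ctrl on the left and YHY against Model on the right, in red where the test was passed. The left panel's values run from -1.54 for Hsd11b2 to 2.98 for Zbtb16. The calls of Fkbp5 and Klf9 there were lost with library size alone, and the call of Sgk1 in YHY against Model was lost under 11 of 21 alternatives.

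The values of this comparison moved with the scaling. Over all genes tested the median of log2 fold changes between Model and Ctrl was 0.038 with TMM, 0.14 with upper-quartile scaling, -0.39 with library size alone and 0.37 with mitochondrial genes removed and library size alone. Over the 10 members the same medians were 0.61, 0.72, 0.21 and 0.95. Zbtb16, Mt1 and Mt2 were called higher, and Nr3c1 and Hsd11b2 lower, under each of these scalings. With mitochondrial genes removed and TMM the median over all genes was 0.035, and the same 7 members were called as with all genes. The part of the mitochondrial share in the members' values was not tested.

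**Figure D3:**
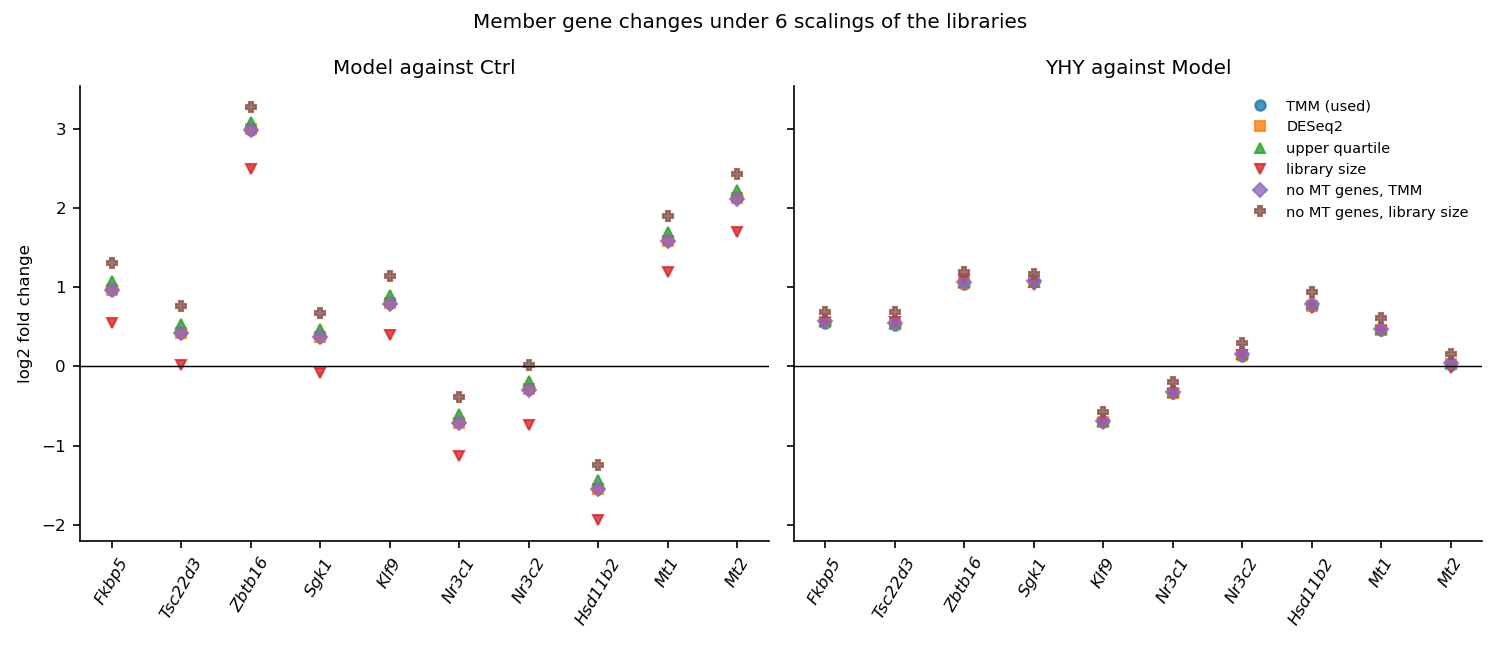
Each symbol is a member's log2 fold change under 1 of 6 scalings of the libraries, for Model against Ctrl on the left and YHY against Model on the right. In Model against Ctrl Sgk1 crosses 0 with library size alone (-0.087) and Nr3c2 with mitochondrial genes removed and library size alone (0.012), and in YHY against Model Mt2 crosses 0 with library size alone (-0.020).

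Among other genes known as glucocorticoid targets, 14 of 34 tested rose in Model and 2 fell. Their median log2 fold change was 0.35, against 0.038 over all genes tested. Scaled by library size only, 8 rose and 6 fell (median -0.080), and with mitochondrial genes removed and library size alone 18 rose and 1 fell (median 0.68). With TMM 19.6% of all genes tested rose and 18.5% fell, and the TMM counts of the other lists can be read against these shares. The balance over all genes moved with the scaling as well. Of all genes called, 51.5% were higher with TMM and 21.4% with library size alone. With mitochondrial genes removed and library size alone 77.8% were higher, so list counts under each scaling are to be read against its own balance. Hif3a, a subunit of the hypoxia-inducible factor family, rose by 2.92 on the log2 scale (SE 0.51, adjusted P = 0.000392). Map3k6, a kinase upstream of MAP kinases, rose by 2.65 on the log2 scale (SE 0.27, adjusted P = 7.6e-06), and the clock repressor Per1 by 2.59 on the log2 scale (SE 0.35, adjusted P = 5.42e-05). In each of the 3 genes all 4 Model mice were above every Ctrl mouse.

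Among 7 other receptors of the steroid receptor family, 1 rose and 1 fell, with a median of 0.062. In fits with library size alone 2 fell (median -0.37), and with mitochondrial genes removed and library size alone 3 rose and 1 fell (median 0.39). Esr1, the estrogen receptor alpha, fell by 1.27 on the log2 scale (SE 0.24, adjusted P = 0.000703), with 4 of 4 Model mice below every Ctrl mouse. Esrrb, an orphan receptor related to it, rose by 1.19 on the log2 scale (SE 0.30, adjusted P = 0.00585), with 4 of 4 Model mice above every Ctrl mouse, a call lost with library size alone (adjusted P = 0.12). Of the chaperones that fold and hold steroid receptors, 13 of 16 tested fell, with a median of -1.10. Where library size alone was used 14 fell (median -1.52), and with mitochondrial genes removed and library size alone 2 rose and 13 fell (median -0.78). The inducible heat shock genes Hspa1a and Hspa1b fell by 3.92 on the log2 scale (SE 0.56, adjusted P = 8.86e-05) and by 3.37 on the log2 scale (SE 0.59, adjusted P = 0.000391). Hsph1, which recycles such chaperones, fell by 2.31 on the log2 scale (SE 0.25, adjusted P = 1.19e-05). In these 3 genes every Model mouse was below every Ctrl mouse. Ctrl 3 stood far above the other Ctrl mice in the inducible pair, as Hspa1a was at 30.7, 44.9, 150.2 and 34.8 CPM and Hspa1b at 68.8, 69.2, 270.1 and 82.8 CPM in Ctrl 1 to 4. Without Ctrl 3 the log2 fold change was -3.14 (adjusted P = 0.000173) for Hspa1a and -2.68 (adjusted P = 0.00132) for Hspa1b.

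Of the coregulators of the receptors, 3 of 12 tested rose and 1 fell, with a median of 0.15. Under library size alone 4 fell (median -0.28), and with mitochondrial genes removed and library size alone 7 rose (median 0.48). Nrip1, a corepressor, rose by 0.50 on the log2 scale (SE 0.16, adjusted P = 0.0211), with 4 of 4 Model mice above every Ctrl mouse, and its call was lost under 5 of 21 alternatives, with library size alone (0.804) and the authors' 9 mice (0.149), and without Ctrl 1, Ctrl 3 or Model 1 (0.0662 to 0.125), adjusted P in brackets. The acetyltransferase Crebbp rose by 0.43 on the log2 scale (SE 0.16, adjusted P = 0.04), with 4 of 4 Model mice above every Ctrl mouse, and its call was lost under 9 of 21 alternatives, with library size alone (0.973) and no filter (0.0944), and without Ctrl 1, Ctrl 2, Ctrl 3, Ctrl 4, Model 2, Model 3 or Model 4 (0.06 to 0.127), adjusted P in brackets. With library size alone its sign turned, at -0.0087. The corepressor Ncor1 fell by 0.49 on the log2 scale (SE 0.13, adjusted P = 0.00696), with 4 of 4 Model mice below every Ctrl mouse, and the call was lost with mitochondrial genes removed and library size alone (adjusted P = 0.348).

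Of the genes of steroid metabolism and supply, 8 enzymes and 2 efflux pumps, 5 of 10 tested fell in Model and 2 rose, with a median of -0.46. Scaled by library size only, 2 rose and 7 fell (median -0.87), and with mitochondrial genes removed and library size alone 2 rose and 3 fell (median -0.12). Upper-quartile scaling left 3 that fell. Akr1c18, which inactivates progesterone, fell by 5.96 on the log2 scale (SE 0.43, adjusted P = 3.58e-07), from 23.8 ± 8.83 to 0.361 ± 0.224 CPM (n = 4), and without Model 1 the log2 fold change was -6.57 (adjusted P = 8.61e-07). Srd5a2, a steroid reductase, fell by 2.15 on the log2 scale (SE 0.45, adjusted P = 0.00138), with 3 of 4 Model mice below every Ctrl mouse. Cyp17a1, a hydroxylase of androgen synthesis, rose by 3.21 on the log2 scale (SE 0.59, adjusted P = 0.000565), from 0.280 ± 0.0308 to 2.63 ± 1.60 CPM. For Akr1c18 and Cyp17a1 the 4 Model and 4 Ctrl mice did not overlap. Hsd11b1, the enzyme that regenerates corticosterone, fell by 0.81 on the log2 scale (SE 0.29, adjusted P = 0.0372), with 2 of 16 pairs of mice higher in Model, and its call was lost under 9 of 21 alternatives, with upper-quartile scaling (0.0668), mitochondrial genes removed and library size alone (0.218) and the authors' 9 mice (0.0697), and without Ctrl 1, Ctrl 2, Ctrl 3, Model 1, Model 2 or Model 4 (0.0568 to 0.0878), adjusted P in brackets.

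Because the adrenal makes corticosterone next to the kidney, its markers were read as well. The 7 adrenal cortex markers summed to 2.76, 3.31, 2.13 and 2.37 CPM in the Ctrl mice, while the Model mice had 12.0, 14.5, 15.2 and 24.6 CPM and the YHY mice 13.8, 17.5, 14.0 and 19.4 CPM. Hsd3b1 was the most abundant gene of the list among the Model and YHY mice, at 8.43 to 20.7 CPM in Model against 0.250 to 0.936 CPM in Ctrl, and it rose by 4.22 on the log2 scale (SE 0.38, adjusted P = 2.68e-06) with 4 of 4 Model mice above every Ctrl mouse. The defining enzyme of aldosterone synthesis, Cyp11b2, was at 0 in all 12 mice, and 0 reads allow up to 0.0683 to 0.166 CPM per mouse. Cyp11b1, Cyp21a1 and Cyp11a1, which make corticosterone, had at most 4, 2 and 8 reads in any mouse.

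Sodium and potassium transport genes that respond to aldosterone moved both ways: 6 of 19 tested rose and 5 fell, with a median of 0.061. In fits with library size alone 4 rose and 8 fell (median -0.37), and with mitochondrial genes removed and library size alone 7 rose and 4 fell (median 0.40). Atp1b1, a sodium pump subunit, fell by 2.18 on the log2 scale (SE 0.25, adjusted P = 1.65e-05). Usp2, a deubiquitinase of the sodium channel, rose by 1.86 on the log2 scale (SE 0.29, adjusted P = 0.000162). For Atp1b1 and for Usp2 the 4 Model mice lay apart from the 4 Ctrl mice. Of the zinc transporters and related genes, 6 of 11 tested fell, with a median of -0.66. Where library size alone was used 8 fell (median -1.09), and with mitochondrial genes removed and library size alone 2 rose and 3 fell (median -0.32). Upper-quartile scaling left 4 that fell. Slc39a8 and Slc39a10, which import zinc, fell by 2.32 on the log2 scale (SE 0.19, adjusted P = 1.04e-06) and by 1.27 on the log2 scale (SE 0.16, adjusted P = 3.07e-05). The exporter Slc30a1 fell by 0.99 on the log2 scale (SE 0.18, adjusted P = 0.000436). For all 3 zinc genes every Model mouse was below every Ctrl mouse.

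Relatives of Tsc22d3, Fkbp5, Klf9 and Zbtb16 rose in 6 of 17 tested and fell in 1, with a median of 0.29. Under library size alone 3 fell (median -0.14), and with mitochondrial genes removed and library size alone 9 rose (median 0.61). Fkbp10, a collagen chaperone, rose by 1.25 on the log2 scale (SE 0.32, adjusted P = 0.00634), and the Krüppel-like factors Klf11 and Klf2 by 0.99 on the log2 scale (SE 0.26, adjusted P = 0.00723) and by 0.92 on the log2 scale (SE 0.18, adjusted P = 0.000917). All 4 Model mice were above every Ctrl mouse for each, and each call was lost with library size alone, at adjusted P of 0.0711, 0.0887 and 0.105. Of the clock genes, whose transcripts follow the time of day as glucocorticoids do, 9 of 18 tested rose and 3 fell, with a median of 0.68. Scaled by library size only, 6 rose and 5 fell (median 0.27), and with mitochondrial genes removed and library size alone 11 rose and 1 fell (median 1.02). Ciart, a clock repressor, rose by 3.90 on the log2 scale (SE 0.77, adjusted P = 0.000966), and Per2, a partner of Per1, by 1.87 on the log2 scale (SE 0.31, adjusted P = 0.000234). For both, 4 of 4 Model mice were above every Ctrl mouse. The part of the time of day in the members' values was not tested.

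**Figure D4:**
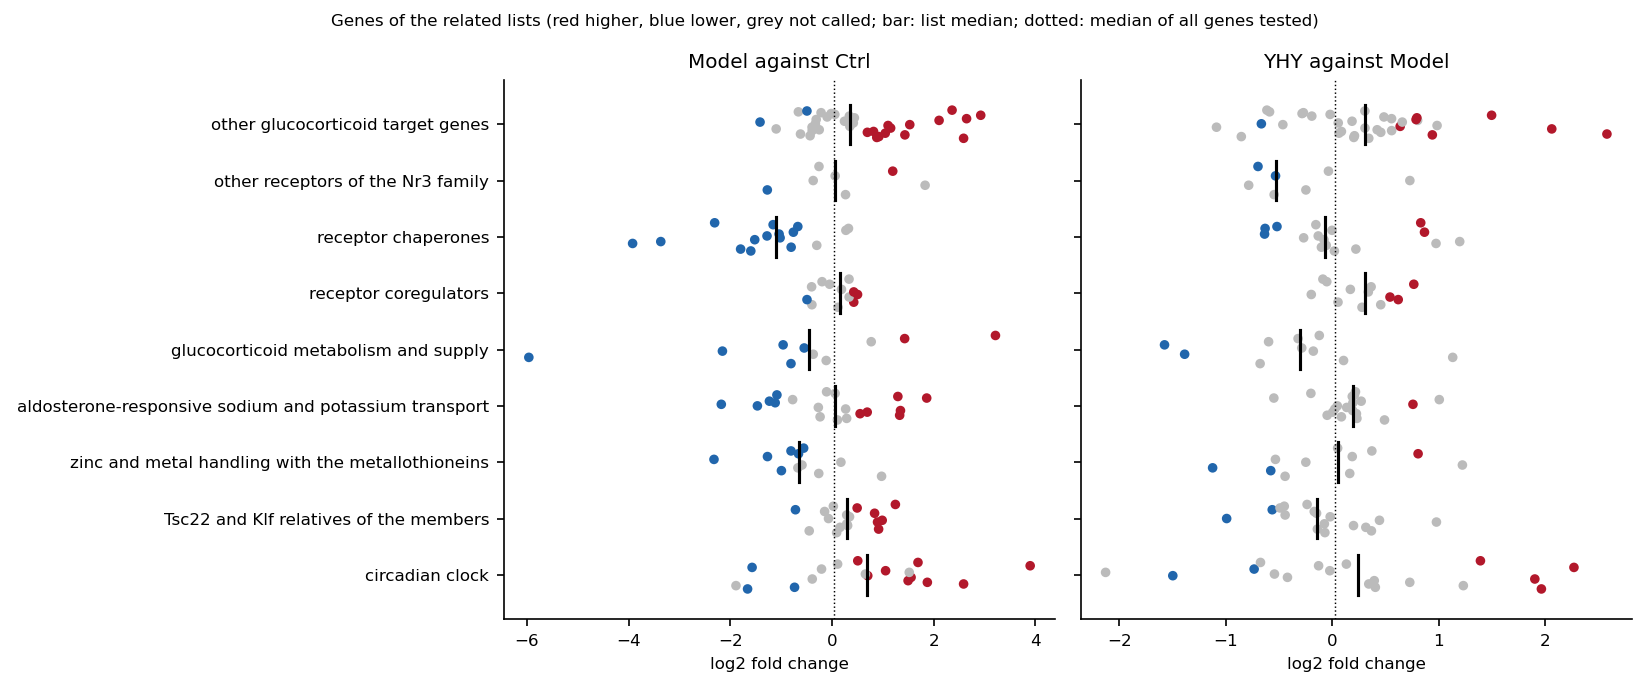
Points are log2 fold changes of the tested genes of 9 related lists, red for called higher and blue for called lower, with a bar at each list's median and a dotted line at the median of all genes tested. For Model and Ctrl the median runs from -1.10 for chaperones to 0.68 for clock genes. With library size alone the medians of the target genes, receptors, coregulators, transport genes and relatives are below 0.

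The comparison of YHY with Model asks what the decoction changes in the diabetic kidney, and it shares the 4 Model mice with the comparison of Model with Ctrl. Among the members, Sgk1 rose and Klf9 fell, while the other 8 did not pass the test. Klf9 in the YHY mice stood at 0.614 of its Model level, and Sgk1 at 2.09 times its Model level with a wide spread. Of the 10 members, 2 had an adjusted P under 0.05, where 13.3% of all genes tested did, 1 higher against 5.63% of all genes and 1 lower against 7.62%. The YHY and Model values did not overlap for 3 members (Zbtb16, Klf9 and Nr3c1), against 16.1% of all genes. The median log2 fold change was 0.49 over the members and 0.022 over all genes tested.

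These counts were sensitive to single mice. Without Model 3, 1146 genes were called in place of 2311. Without Model 3 or without YHY 1, 0 members were called by edgeR, with 6 and 5 at an unadjusted P under 0.05, and DESeq2 on all 12 mice called 4 (Klf9, Hsd11b2, Sgk1 and Zbtb16). A single member was called without Ctrl 1, Ctrl 3, Model 2, Model 4, YHY 2 or YHY 3, and 3 without Ctrl 2 or YHY 4. Except without Model 3, the number of all genes called in each of these fits is not given here. These member counts therefore cannot be read against a share of all genes.

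Sgk1 was counted at 165, 168, 75.1 and 312 CPM in YHY mice 1 to 4, against 78.6 to 91.6 CPM in Model. YHY 4 was the highest of all 12 mice, YHY 1 and YHY 2 were nearly level, and YHY 3 was below every Model mouse. With 3 of 4 YHY mice above every Model mouse, Sgk1 rose by 1.06 on the log2 scale (SE 0.33, adjusted P = 0.0432). The call was lost without Ctrl 1 (0.0577), Ctrl 3 (0.0538), Model 1 (0.0796), Model 2 (0.0963), Model 3 (0.109), Model 4 (0.082), YHY 1 (0.0587), YHY 2 (0.0677) or YHY 4 (0.129, adjusted P in each bracket), and without YHY 4 the log2 fold change was 0.66. It was lost as well with library size alone (adjusted P = 0.0789) and with the authors' 9 mice (adjusted P = 0.127).

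Klf9 was counted at 90.2, 102, 85.8 and 142 CPM in YHY, and every YHY mouse was below the lowest Model mouse, at 147 CPM. YHY 4 was the nearest to Model, and the other 3 lay within the Ctrl range of 77.1 to 123 CPM, a comparison that was not tested. Klf9 fell by 0.70 on the log2 scale (SE 0.19, adjusted P = 0.0215). The call was lost without Model 3 (adjusted P = 0.0622), YHY 1 (adjusted P = 0.0555) or YHY 3 (adjusted P = 0.0571).

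The other targets had higher means in YHY without passing the test. Fkbp5 was counted at 123, 139, 161 and 139.8 CPM in YHY, and Model 4, the highest Model mouse at 129 CPM, exceeded YHY 1. Fkbp5 had a log2 fold change of 0.55 (SE 0.24, adjusted P = 0.136), with 3 of 4 YHY mice above every Model mouse. Zbtb16 was counted at 12.7, 8.57, 8.90 and 11.2 CPM in YHY, all above the Model maximum of 6.38 CPM. The fitted log2 difference of Zbtb16 was 1.04 (SE 0.39, adjusted P = 0.0916), and it passed the threshold with DESeq2 (adjusted P = 0.036), with no filter (adjusted P = 0.0321), in the 8 mice compared (adjusted P = 0.0186) and without Ctrl 2 (adjusted P = 0.0365). Tsc22d3 was counted at 123, 69.6, 77.1 and 62.8 CPM in YHY. YHY 1 stood well above the rest and YHY 4 was level with Model 3. The log2 fold change of Tsc22d3 was 0.52 (SE 0.19, adjusted P = 0.0791), with 3 of 4 YHY mice above every Model mouse, and it passed the threshold without YHY 4 (adjusted P = 0.0319) and with mitochondrial genes removed and library size alone (adjusted P = 0.0373).

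For the receptors, Nr3c1 was counted at 23.7, 28.6, 25.7 and 27.0 CPM in YHY, below the lowest Model mouse at 29.8 CPM in all 4. Its log2 fold change was -0.34 (SE 0.14, adjusted P = 0.133), so the groups were apart but the test was not passed. Nr3c2 was counted at 8.66, 8.57, 7.85 and 7.52 CPM in YHY, within the Model range. Its log2 fold change was 0.13 (SE 0.22, adjusted P = 0.742) and turned to -0.032 without Model 4.

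Hsd11b2 was counted at 98.4, 95.3, 110.4 and 72.8 CPM in YHY. Values of YHY 1, YHY 2 and YHY 3 were above every Model mouse, while YHY 4 was below Model 1, which at 92.5 CPM stood apart from the other Model mice. The log2 fold change was 0.76 (SE 0.26, adjusted P = 0.0637), and without Model 1 it was 1.13 and passed the threshold (adjusted P = 0.00737). It passed as well without YHY 4 (adjusted P = 0.0415) and under 5 other alternatives: DESeq2, no filter, at least 10 counts in every mouse, mitochondrial genes removed with library size alone, and the authors' 9 mice, at adjusted P of 0.0276, 0.0156, 0.0467, 0.0256 and 0.00396. The 6 principal cell markers summed to 689, 252, 361 and 210.2 CPM in YHY, with YHY 1 the highest and YHY 4 the lowest.

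Mt1 was counted at 413, 348, 504 and 452 CPM in YHY, of which 2 exceeded Model 1, the highest Model mouse at 436 CPM. Its log2 fold change was 0.45 (SE 0.22, adjusted P = 0.176). Mt2 was counted at 3.26 CPM in YHY 2 and at 2.06 to 2.21 CPM in YHY 1, 3 and 4, from 54 to 59 reads per mouse. YHY 2 was above every Model mouse and the others lay within the Model range. The log2 fold change of Mt2 was 0.023 (SE 0.37, adjusted P = 0.98), and it turned to -0.020 with library size alone, -0.12 without Model 2 and -0.15 without YHY 2.

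Other glucocorticoid targets rose in 7 of 34 tested and fell in 1 in YHY, with a median of 0.31, where 0.022 was the median over all genes tested, of which 5.63% rose and 7.62% fell. In fits with library size alone 4 rose and 2 fell (median 0.31), and with mitochondrial genes removed and library size alone 7 rose and 2 fell (median 0.46). Of all genes called in YHY against Model, 42.5% were higher with TMM and 41.7% with library size alone. With mitochondrial genes removed and library size alone 64.6% were higher. Pdk4, the kinase that shuts off pyruvate dehydrogenase, rose by 2.58 on the log2 scale (SE 0.38, adjusted P = 0.000884), with 4 of 4 YHY mice above every Model mouse. Lcn2, an iron-trafficking lipocalin made by injured tubules, rose by 2.06 on the log2 scale (SE 0.62, adjusted P = 0.0381), with 4 of 4 YHY mice above every Model mouse, and its call was lost under 7 of 21 alternatives, with library size alone (0.0628), and without Model 1, Model 2, Model 3, Model 4, YHY 1 or YHY 3 (0.0575 to 0.116), adjusted P in brackets. Hif3a, which had risen in Model too, rose by 1.50 on the log2 scale (SE 0.46, adjusted P = 0.0406), with 4 of 4 YHY mice above every Model mouse, and its call was lost under 8 of 20 alternatives, with library size alone (0.0544) and the authors' 9 mice (0.0579), and without Ctrl 1, Model 1, Model 2, Model 3, YHY 2 or YHY 3 (0.0522 to 0.118), adjusted P in brackets. Of these, the call of Pdk4 alone held under all 21 alternatives.

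Of the other receptors of the family 2 of 7 fell, with a median of -0.53. Where library size alone was used these calls were lost (median -0.53), and with mitochondrial genes removed and library size alone 1 fell (median -0.40). Esrrg, an estrogen-related receptor of oxidative metabolism, fell by 0.70 on the log2 scale (SE 0.17, adjusted P = 0.0147), with 4 of 4 YHY mice below every Model mouse, and its call was lost under 3 of 21 alternatives, with library size alone (0.0532), the 8 mice compared (0.0592) and the authors' 9 mice (0.0819), adjusted P in brackets. Esrra, its relative, fell by 0.53 on the log2 scale (SE 0.14, adjusted P = 0.0213), with 4 of 4 YHY mice below every Model mouse, and its call was lost under 6 of 21 alternatives, with library size alone (0.0886), mitochondrial genes removed and library size alone (0.0901) and the 8 mice compared (0.0743), and without Model 3, Model 4 or YHY 1 (0.0545 to 0.0719), adjusted P in brackets. Chaperones rose in 2 and fell in 3 of 16 tested, with a median of -0.068. Under library size alone 1 rose (median -0.047), and with mitochondrial genes removed and library size alone 2 rose and 1 fell (median 0.085). Ppid, a cyclophilin in receptor complexes, rose by 0.87 on the log2 scale (SE 0.15, adjusted P = 0.00258), with 4 of 4 YHY mice above every Model mouse. Hsph1, which had fallen in Model, rose by 0.83 on the log2 scale (SE 0.24, adjusted P = 0.035), with 4 of 4 YHY mice above every Model mouse, and its call was lost under 6 of 21 alternatives, with library size alone (0.0887), and without Ctrl 3, Model 1, Model 2, Model 3 or YHY 1 (0.0517 to 0.112), adjusted P in brackets. Fkbp4, the co-chaperone that favours receptor transport, fell by 0.64 on the log2 scale (SE 0.16, adjusted P = 0.0158), with 4 of 4 YHY mice below every Model mouse, and its call was lost under 2 of 21 alternatives, with library size alone (0.0766) and the 8 mice compared (0.0527), adjusted P in brackets. The call of Ppid was kept under all 21 alternatives.

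Coregulators rose in 3 of 12 tested, with a median of 0.31. Scaled by library size only, 1 rose (median 0.30), and with mitochondrial genes removed and library size alone 5 rose (median 0.44). Carm1, an arginine methyltransferase coactivator, rose by 0.77 on the log2 scale (SE 0.18, adjusted P = 0.0115), with 4 of 4 YHY mice above every Model mouse, and its call was lost under 1 of 21 alternatives, with library size alone (0.0554), adjusted P in brackets. Ncor1, the corepressor that had fallen in Model, rose by 0.62 on the log2 scale (SE 0.13, adjusted P = 0.0067), with 4 of 4 YHY mice above every Model mouse. Genes of steroid metabolism and supply, the 2 pumps included, fell in 2 of 10 tested, with a median of -0.30. Akr1d1, a steroid reductase, fell by 1.58 on the log2 scale (SE 0.23, adjusted P = 0.000884), with 4 of 4 YHY mice below every Model mouse. Srd5a1, a reductase of the same pathway, fell by 1.39 on the log2 scale (SE 0.25, adjusted P = 0.00312), with 4 of 4 YHY mice below every Model mouse. Both of these calls held under all 21 alternatives. Hsd11b1 had a log2 fold change of -0.68 (SE 0.29, adjusted P = 0.133).

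Of the aldosterone-responsive transport genes 1 of 19 rose, with a median of 0.19. In fits with library size alone this call was lost (median 0.19), and with mitochondrial genes removed and library size alone 1 rose (median 0.33). Atp1b1, the pump subunit that had fallen in Model, rose by 0.76 on the log2 scale (SE 0.24, adjusted P = 0.0497), with 3 of 4 YHY mice above every Model mouse, and its call was lost under 10 of 21 alternatives, with library size alone (0.146), and without Ctrl 1, Ctrl 3, Ctrl 4, Model 2, Model 3, Model 4, YHY 1, YHY 3 or YHY 4 (0.0548 to 0.143), adjusted P in brackets. Zinc genes rose in 1 and fell in 2 of 11 tested, with a median of 0.050. Where library size alone was used 1 rose and 1 fell (median 0.012), and with mitochondrial genes removed and library size alone 1 rose and 1 fell (median 0.16). Slc30a2, a vesicular zinc transporter, fell to 0.459 of its Model level (adjusted P = 0.0393), with 4 of 4 YHY mice below every Model mouse, and its call was lost under 6 of 21 alternatives, without Model 1, Model 3, Model 4, YHY 1, YHY 2 or YHY 3 (0.053 to 0.102), adjusted P in brackets. Slc39a14, an importer of zinc and iron, rose by 0.81 on the log2 scale (SE 0.24, adjusted P = 0.0346), with 3 of 4 YHY mice above every Model mouse, and its call was lost under 6 of 21 alternatives, with the 8 mice compared (0.0613) and the authors' 9 mice (0.138), and without Model 1, Model 2, YHY 2 or YHY 4 (0.0561 to 0.11), adjusted P in brackets. Slc30a1, the zinc exporter, fell by 0.58 on the log2 scale (SE 0.18, adjusted P = 0.0415), with 3 of 4 YHY mice below every Model mouse, and its call was lost under 12 of 21 alternatives, with library size alone (0.118), mitochondrial genes removed and library size alone (0.0988) and the 8 mice compared (0.113), and without Ctrl 1, Ctrl 2, Ctrl 3, Model 1, Model 3, Model 4, YHY 1, YHY 2 or YHY 3 (0.0503 to 0.123), adjusted P in brackets. Each of these 4 calls was lost on leaving out 1 mouse or another.

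Relatives of Tsc22d3, Fkbp5, Klf9 and Zbtb16 fell in 2 of 17 tested, with a median of -0.14. Under library size alone these calls were lost (median -0.12), and with mitochondrial genes removed and library size alone 2 rose (median 0.0067). Klf12, a Krüppel-like repressor, fell by 0.99 on the log2 scale (SE 0.27, adjusted P = 0.024), with 4 of 4 YHY mice below every Model mouse, and its call was lost under 8 of 21 alternatives, with library size alone (0.0619), mitochondrial genes removed and library size alone (0.0552), no filter (0.0507), the 8 mice compared (0.0842) and the authors' 9 mice (0.126), and without Model 1, Model 2 or Model 3 (0.0535 to 0.0713), adjusted P in brackets. Fkbp1a, a small immunophilin, fell by 0.56 on the log2 scale (SE 0.17, adjusted P = 0.0415), with 3 of 4 YHY mice below every Model mouse, and its call was lost under 14 of 21 alternatives, with upper-quartile scaling (0.0584), library size alone (0.217), mitochondrial genes removed and library size alone (0.181), the 8 mice compared (0.13) and the authors' 9 mice (0.257), and without Ctrl 1, Ctrl 2, Ctrl 3, Ctrl 4, Model 1, Model 2, Model 3, YHY 2 or YHY 4 (0.0506 to 0.154), adjusted P in brackets. Clock genes rose in 4 and fell in 2 of 18 tested, with a median of 0.24. Nfil3, a repressor of the clock output, rose by 2.27 on the log2 scale (SE 0.41, adjusted P = 0.00339), with 4 of 4 YHY mice above every Model mouse. Arntl, the core activator of the clock, rose by 1.96 on the log2 scale (SE 0.56, adjusted P = 0.0309), with 3 of 4 YHY mice above every Model mouse, and its call was lost under 6 of 21 alternatives, with the authors' 9 mice (0.158), and without Model 1, Model 3, Model 4, YHY 3 or YHY 4 (0.0588 to 0.0998), adjusted P in brackets. Cry1, a core repressor, rose by 1.90 on the log2 scale (SE 0.33, adjusted P = 0.00239), with 4 of 4 YHY mice above every Model mouse. Clock genes also split within groups. Arntl was at 14.2, 4.84, 6.02 and 14.7 CPM in Ctrl 1 to 4, 2.19, 4.81, 1.92 and 3.72 CPM in Model 1 to 4 and 2.94, 5.14, 17.1 and 23.8 CPM in YHY 1 to 4. Ciart was at 0.384, 0.749, 0.906 and 0.364 CPM in the Ctrl mice and 6.26, 23.9, 0.893 and 2.01 CPM in the YHY mice. Ctrl 1 and Ctrl 4 lay apart from Ctrl 2 and Ctrl 3, without overlap, in 14 of 18 clock genes. In 12 of them YHY 3 and YHY 4 lay apart from YHY 1 and YHY 2. The mice on each side were picked after these values were seen, so the counts describe that choice and test nothing. Of the 10 members, Zbtb16, Sgk1 and Mt2 were higher and Klf9 lower in Ctrl 1 and Ctrl 4, and Fkbp5 and Mt1 were higher and Nr3c2 lower in YHY 3 and YHY 4, again without overlap. The other members overlapped in each group. The share of all genes that separate the same mice was not counted, so these members are not shown to follow the clock genes. The part of the clock in these values was not tested. The calls of Nfil3 and Cry1 held under all 21 alternatives.

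Ratios of genes within a library need no scaling between libraries. Per listed length, mineralocorticoid to glucocorticoid receptor transcripts stood at 0.179, 0.159, 0.184 and 0.287 in Ctrl, 0.280, 0.268, 0.317 and 0.189 in Model and 0.433, 0.355, 0.362 and 0.331 in YHY. Means were 0.202 ± 0.0575, 0.264 ± 0.0537 and 0.370 ± 0.0440 (SD, n = 4), the YHY mice were all above the Model mice, and Model and Ctrl overlapped. The count ratio of Hsd11b2 to Hsd11b1, the enzymes that inactivate and regenerate corticosterone, was 0.533, 0.736, 0.568 and 1.90 in Ctrl, 1.09, 0.349, 0.315 and 0.363 in Model and 0.987, 1.03, 1.83 and 1.84 in YHY. Its means were 0.933 ± 0.648, 0.529 ± 0.374 and 1.42 ± 0.477. Ctrl 4 and Model 1 were far above their groups, and through Model 1 the Model mice overlapped both other groups.

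Hsd11b2 counts over the summed counts of the principal cell markers gave 0.160, 0.342, 0.210 and 0.159 in Ctrl, 0.186, 0.135, 0.131 and 0.103 in Model and 0.143, 0.378, 0.306 and 0.346 in YHY. The means were 0.218 ± 0.0863, 0.139 ± 0.0346 and 0.293 ± 0.105, and the groups overlapped in both comparisons, by Model 1 alone against Ctrl and by YHY 1 alone against Model. Aqp2 held most of the marker counts in every mouse, so this ratio is mainly that of Hsd11b2 to Aqp2. Mt2 to Mt1 counts stood at means of 0.00552 ± 0.00337 in Ctrl, 0.00780 ± 0.00171 in Model and 0.00590 ± 0.00234 in YHY, with overlap in both comparisons, and Ctrl 1 and YHY 2 were the highest of their groups.

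**Figure D5:**
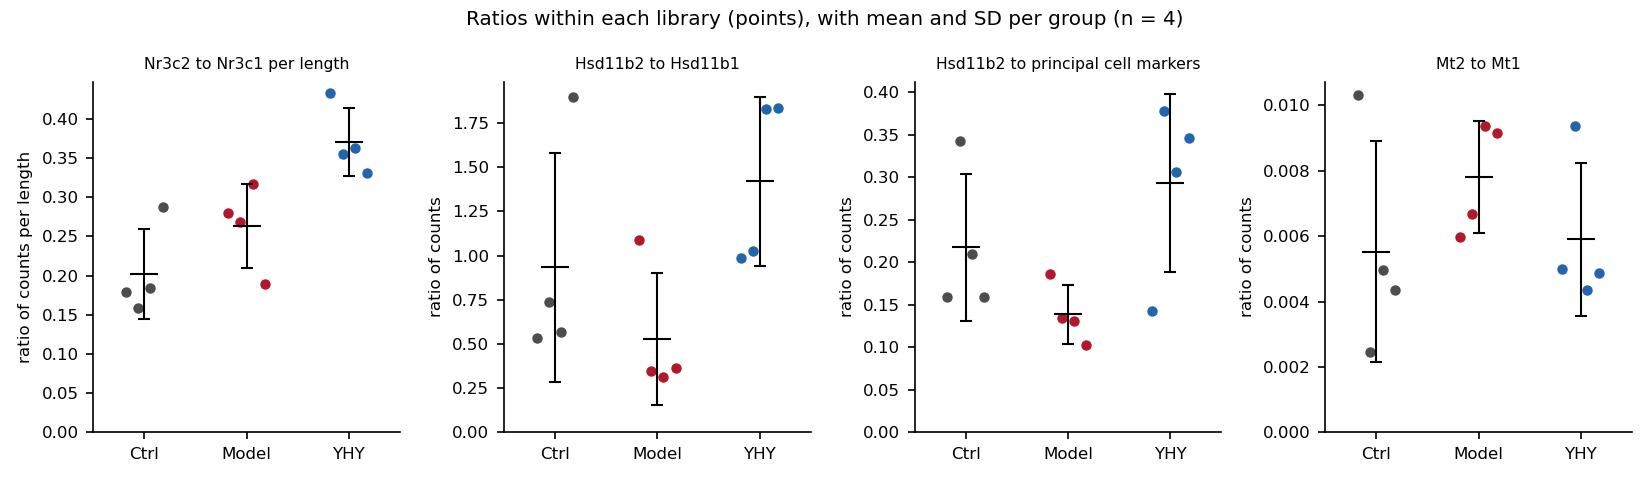
Each panel plots a ratio within a library on the vertical axis, 1 point per mouse with the mean and SD (n = 4) of each group. The ratio of Nr3c2 to Nr3c1 per length is 0.331 or more in the 4 YHY mice and 0.317 or less in the 4 Model mice, and in the other 3 panels the groups overlap.

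Markers of other cell types moved with Model too. Markers that fell were 2 of 6 for proximal tubule, 3 of 4 for thick ascending limb, 2 of 5 tested for principal cells, 1 of 5 for intercalated cells, 2 of 5 for macrophages and 3 of 5 for erythroid cells. Those that rose were 2 of 4 for distal convoluted tubule, 2 of 5 for podocytes, 2 of 5 for fibroblasts and pericytes, 1 of 5 for macrophages, 1 of 5 for erythroid cells and both adrenal markers tested (Hsd3b1 and Star, of 7 listed). With library size alone, 4 principal cell and 3 proximal tubule markers fell, 1 podocyte marker rose and 1 fell, 1 fibroblast and pericyte marker and 1 T and NK cell marker fell, and no fibroblast, macrophage or erythroid marker rose. With mitochondrial genes removed and library size alone, 1 principal cell marker rose and 1 fell, 3 distal convoluted tubule, 3 podocyte and 1 endothelial marker rose, 2 thick ascending limb, 1 macrophage and 2 erythroid markers fell, and the call in intercalated cells was lost, as it was with upper-quartile scaling. With TMM, endothelial markers (5 tested), those of T and NK cells (2 tested) and of adipocytes (1 tested) did not pass the test. In YHY against Model 1 marker each of proximal tubule, distal convoluted tubule and intercalated cells fell and 2 erythroid markers rose. With library size alone 2 proximal tubule and 2 distal convoluted tubule markers fell and 1 erythroid marker rose, and with mitochondrial genes removed and library size alone 3 erythroid markers rose. The part of these cell types in the members' values was not tested.

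Patterns like those of 2 members were sought among 12929 genes with a mean of at least 50 counts, by Pearson's r of log2 CPM over the 12 mice, as a description with no test. Fkbp5 was most like Yeats2 (r = 0.947), Tctn3 (r = 0.930) and Sgsm3 (r = 0.927). Yeats2 stood at 12.2 ± 1.31 CPM in the Ctrl mice, 19.3 ± 1.66 in the Model mice and 28.3 ± 3.34 in the YHY mice (n = 4). Hsd11b2 was most like Uba1 (r = 0.933), Tmx4 (r = 0.932) and Snx13 (r = 0.931). Uba1 stood at 110.3 ± 7.38 CPM in the Ctrl mice, 62.7 ± 14.7 in the Model mice and 78.9 ± 4.22 in the YHY mice. These r values were taken over the 3 groups at once, of which Ctrl stood apart in mitochondrial share.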

How the data were processed

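The authors deposited raw counts of reads per gene for 12 mice, 4 per group, and all tests start from these counts. The submitters' notes name FastQC, Trimmomatic, HISAT2, SAMtools, featureCounts and DESeq2, and do not state the use of strand. The authors' tables of differences hold group means, a signal of counts divided by a factor per library, which was checked against the counts: these means rest on 9 of the 12 mice (without Ctrl 2, Model 1 and YHY 4). Their 12 columns of values per mouse, their fold changes and p-values, and the pathway tables, which hold enrichment of KEGG pathways, were not used here.

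Genes were filtered with filterByExpr, which kept 17431 of 57490, scaled by TMM and fitted in 1 model of the 3 groups with edgeR 4.0.16 in R 4.3.3 (quasi-likelihood test, two-sided, Benjamini-Hochberg adjustment over all genes tested). A gene was called at an adjusted P under 0.05, SE is the log2 fold change over the root of F, and levels are TMM-scaled CPM or CPM per kb of listed length. Depth was 24415658 to 33276634 counts per mouse, and intervals and the floor of 3 counts cover counting error only. The method was tested on simulated data. Promoters were read with Python 3.11.15 and pandas 2.3.3, and plots drawn with matplotlib 3.10.9.

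Members and lists were chosen with earlier results of these data known. Named genes are the 10 members, up to 3 genes per list and comparison with the largest absolute log2 fold change among those called, each marker list's most abundant gene and any defining marker at 0, the 3 genes most like Fkbp5 and Hsd11b2, and genes of the ratios. Of the genes this rule picks, 2 are not reported here. The 9 lists were glucocorticoid targets, receptors, chaperones, coregulators, steroid metabolism, aldosterone-responsive transport, zinc handling, relatives of members and clock genes, and the 13 marker lists covered kidney, blood, adrenal and fat cells. Cyp11b1, Cyp21a1, Cyp11a1, Mc2r and Star were named after their values were seen, as were Aqp3, Fxyd4, Scnn1b and Scnn1g. The mice on each side of the split in clock genes were also picked after their values were seen. Alternatives were DESeq2 1.42.0, upper-quartile scaling, library size alone, removal of mitochondrial genes with each of 2 scalings, no filter, at least 10 counts in every mouse, the 8 mice compared, the authors' 9 mice, a block for replicate number, the study's limits (fold change over 1.2 and unadjusted P under 0.05) and leaving out each mouse. Counts of alternatives beside a gene leave out the block and the study's limits. The totals of values under alternatives, given further below, leave out the study's limits alone.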

Additional observations from a re-analysis of the deposited data

Results flagged for a closer look

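Among 30 groups of 4 values (10 members in 3 groups), 2 held a mouse far from its group by Dixon's ratio, where chance gives about 1 in 20 groups. Mt2 stood at 1.67 CPM in Model 2, while Model 1, 3 and 4 had 2.61 to 2.65 CPM. Mt2 stood at 3.26 CPM in YHY 2, while YHY 1, 3 and 4 had 2.06 to 2.21 CPM. These values rest on 35 reads in Model 2 and 59 in YHY 2.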

How the results depend on the processing

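Of 198 member values under alternatives (the block included) that keep all mice or a fixed subset, 178 kept direction and side of the threshold, 4 lost and 13 gained a call. With 1 mouse left out, 220 of 240 kept both, 12 lost and 5 gained a call. Signs turned with library size alone for Sgk1 in Model against Ctrl (-0.087) and Mt2 in YHY against Model (-0.020), and with mitochondrial genes removed and library size alone for Nr3c2 in Model against Ctrl (0.012). In YHY against Model they turned for Nr3c2 without Model 4, in a range of -0.032 to 0.24 over mice left out, and for Mt2 without Model 2 (-0.12) or YHY 2, in a range of -0.15 to 0.092. Of 1207 values of 55 other results that the rule on named genes picks, 1055 kept their call, and Crebbp in Model against Ctrl turned to -0.0087 with library size alone.

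In Model against Ctrl, called genes ran from 5292 to 7093 with 1 mouse left out, and members from 7 to 8. In YHY against Model, genes called were 1177 with library size alone, 1385 in the 8 mice compared, 4988 by the study's limits, and 1146 to 2723 with 1 mouse left out. Members called there were 4 with DESeq2, with no filter or with mitochondrial genes removed and library size alone, 1 with library size alone, 7 by the study's limits, and 0 to 3 with 1 mouse left out (0 by edgeR without Model 3 or YHY 1, with 6 and 5 at an unadjusted P under 0.05). For DESeq2, no filter, and mitochondrial genes removed with library size alone, the number of all genes called is not given here. The member counts of these settings therefore stand without a share of all genes. The cause of these changes was not tested. Zbtb16 could not be tested with at least 10 counts in every mouse, since Ctrl 2 held 4. Neither could Hif3a, with as few as 7 reads in a Ctrl mouse, and Akr1c18, with as few as 4 in a Model mouse.

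With a replicate block, 6289 and 1920 genes and 7 and 2 members were called, and of the 55 other results Crebbp in Model against Ctrl and Arntl, Hif3a, Slc30a2, Slc39a14 and Tctn3 in YHY against Model were not called. Mice of the same number were not alike: 2 of 12 correlations across groups exceeded 0.1 (-0.173 to 0.125), so the block is used only here. Depth limits Mt2 and Zbtb16, with 4 to 45 reads per Ctrl mouse. It also limits Hif3a, Cyp17a1 and Ciart, with 7 to 31, 10 to 12 and 16 to 37 reads per Ctrl mouse. Akr1c18 had 4 to 21 reads per Model mouse.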
